A study of Homo sapiens with 6 samples.

Results

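Follistatin, the activins and their receptors were described as 10 genes of 19421 analysed. They are the secreted antagonists FST, FSTL3 and FSTL1, the activin subunit genes INHBA and INHBB, the type I receptors ACVR1 and ACVR1B, the type II receptors ACVR2A and ACVR2B, and the pseudoreceptor BAMBI. The genes were matched by symbol and all 10 were found, each in 1 row. They were chosen by pathway with the fold change of FST between the groups already known, so every difference between the groups given for these 10 genes is a description and carries no test. RNA sequencing was done on A431, a human squamous carcinoma line, grown in DMEM with serum. The shCONTROL group, with a control shRNA, and the shARID1A group, in which an shRNA targets ARID1A, hold 3 samples each. ARID1A is a DNA-binding subunit of the BAF chromatin remodelling complex. No other treatment, time point or genotype is named in the labels, and the number of different shRNA sequences is not given in the sources used here. All samples come from 1 cell line, and whether replicates were separate cultures is not stated, so the p-values below reflect the spread among these 6 samples alone, and that spread may be technical.

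Activins are dimers of inhibin beta subunits that belong to the TGF-beta superfamily. They bind a type II receptor, which then activates a type I receptor, and the type I receptor phosphorylates SMAD2 and SMAD3. Follistatin wraps around the activin dimer and blocks both receptor contacts, and in skin activin signalling is known for its part in wound repair and keratinocyte growth.

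Levels are in FPKM, in which a gene's reads are scaled by its length and by the library's assigned reads, so that genes can be compared. The assigned reads, recovered from the deposited values, numbered 31658040 to 36453744 per sample. ARID1A, the targeted gene, stood at 23.1 ± 0.602 FPKM in shCONTROL and 7.21 ± 0.465 FPKM in shARID1A (SD, n = 3 per group; log2 fold change -1.55, SE 0.0941, limma adjusted p = 0.000187), and each library matched its label. An exact two-sided permutation test of the 6 ARID1A values gave p = 0.1, the smallest that 3 samples against 3 allow. In a principal component plot of the 6 libraries, shARID1A replicate 3 lay far from the other 5 along the second axis, which held 25.0% of the variance. Of 8 squamous epithelial markers, 7 had a mean of at least 1 FPKM, while the basal keratin KRT14 lay between 0.0706 and 0.847 FPKM. KRT14 was too low to be tested. Of the other 7, KRT5, TP63 and DSG3 fell with the ARID1A shRNA and 0 rose (limma, adjusted p below 0.05). Of all genes tested, 10.9% fell and 5.85% rose. The groups of SFN did not overlap either, with shARID1A lower, but it missed the threshold (limma adjusted p = 0.0695). The endothelial markers summed to at most 0.131 FPKM in any sample and the melanocyte markers to 0.948 to 1.21 FPKM. The immune markers summed to 12.0 to 16.0 FPKM in shCONTROL and 9.14 to 15.5 FPKM in shARID1A, nearly all of it CD68, while the pan-leukocyte gene PTPRC stayed at or below 0.0249 FPKM. Among 7 fibroblast markers, COL1A1 and LUM had a mean of at least 1 FPKM, and the other 5, among them COL1A2, COL3A1 and DCN, stayed at or below 0.202 FPKM. The fibroblast markers summed to 6.56 to 8.96 FPKM in shCONTROL and 10.3 to 12.5 FPKM in shARID1A, and LUM, which encodes the proteoglycan lumican, rose (limma adjusted p = 0.0156). The part of LUM-expressing cells in the results below was not tested.

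FST was the gene of the 10 with the largest difference. FST (gene ID 10468) encodes follistatin, the high-affinity activin antagonist. It stood at 7.51, 6.44 and 4.97 FPKM in shCONTROL replicates 1, 2 and 3 and at 37.9, 32.2 and 35.4 FPKM in shARID1A replicates 1, 2 and 3. Every shARID1A sample lay above every shCONTROL sample. The means were 6.31 ± 1.28 and 35.2 ± 2.86 FPKM (SD, n = 3 per group), a ratio of 5.58. The fold change, the difference of group means of log2(FPKM + 1), was 2.32 with a standard error of 0.142. Between 361 and 499 reads lay behind the shCONTROL values and 2201 to 2901 behind the shARID1A values. In bulk RNA, a change in the number of cells that express a gene and a change in RNA per cell cannot be told apart.

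FSTL1 (gene ID 11167) encodes a secreted glycoprotein with a follistatin-like domain, whose main known partners lie in BMP signalling rather than activin binding. It stood at 4.80, 4.96 and 5.85 FPKM in shCONTROL and at 8.92, 9.20 and 11.2 FPKM in shARID1A. The groups did not overlap, and replicate 3 was the highest of its group in each. The mean was 5.20 ± 0.563 against 9.76 ± 1.21 FPKM (SD, n = 3 per group), a ratio of 1.87 and a log2 fold change of 0.79 with a standard error of 0.124. Without shARID1A replicate 3 the log2 fold change was 0.70 for FSTL1 and 2.31 for FST.

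FSTL3 (gene ID 10272), the follistatin relative that also binds activins and myostatin, went the other way in its mean. It stood at 35.2, 39.98 and 35.1 FPKM in shCONTROL and at 30.8, 37.1 and 18.4 FPKM in shARID1A. The groups overlapped, and shARID1A replicate 3 stood apart from the other shARID1A samples, although each shARID1A sample was below the shCONTROL sample of its own number. The labels do not state that samples of the same number form pairs. The means were 36.8 ± 2.78 and 28.8 ± 9.52 FPKM (SD, n = 3 per group), with a log2 fold change of -0.40 (SE 0.22). Without shARID1A replicate 3 this was -0.11, and without shARID1A replicate 2 it was -0.60.

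The ratio of FST to FSTL3 was 0.213, 0.161 and 0.141 in shCONTROL and 1.23, 0.868 and 1.92 in shARID1A. FSTL3 was therefore the more abundant of these activin antagonists in every shCONTROL sample, and FST in shARID1A replicates 1 and 3.

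Because FST and FSTL1 were the members with higher values in every shARID1A sample, the 250 bases before their RefSeq start sites are shown (GRCh38.p14). FST is on the plus strand, at chr5:53480379-53480628, and FSTL1 on the minus strand, at chr3:120450993-120451242. Both are written 5′ to 3′ in the direction of the gene. Capitals mark letters that match a searched motif on either strand.
FST: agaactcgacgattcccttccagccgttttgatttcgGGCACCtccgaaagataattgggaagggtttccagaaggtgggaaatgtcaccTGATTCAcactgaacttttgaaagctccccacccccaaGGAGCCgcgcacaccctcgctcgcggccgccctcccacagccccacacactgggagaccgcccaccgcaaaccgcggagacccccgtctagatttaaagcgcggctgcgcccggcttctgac
FSTL1: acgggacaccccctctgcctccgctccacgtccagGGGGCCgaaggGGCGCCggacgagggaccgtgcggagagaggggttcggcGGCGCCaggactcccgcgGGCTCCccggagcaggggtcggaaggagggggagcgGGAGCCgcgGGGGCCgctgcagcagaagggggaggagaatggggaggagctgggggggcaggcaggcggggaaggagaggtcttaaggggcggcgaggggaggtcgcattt

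The motifs searched were TGANTCA (AP-1, loosened to any middle letter), CAGAC and GGCNCC (both SMAD), GGAATG (TEAD) and TGACG (a CRE half-site). Each was searched on both strands. Of the 250-base windows of 35116 promoters, 6.57% held TGANTCA, 38.0% CAGAC, 59.8% GGCNCC, 11.9% GGAATG and 21.2% TGACG. The 10 genes had 13 such windows, since ACVR1 and ACVR1B have more than 1 start. TGANTCA was found for FST, as TGATTCA, and for ACVR1, as TGACTCA, so the FST match rests on the loosened middle letter. CAGAC was found for ACVR1, ACVR1B and BAMBI, and GGAATG for ACVR1 and ACVR2B. GGCNCC was found in 10 of the 13 windows. These belonged to 8 of the 10 genes, all except INHBA and ACVR2A. TGACG was found in 0 windows. The shares over all promoters count windows and not genes. The window of INHBA held 1 CpG and that of INHBB 46, against a median of 11 over all promoters. The windows of FST and FSTL1 had 20 and 24 CpGs. A match is a description of these letters only.

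**Figure D1:**
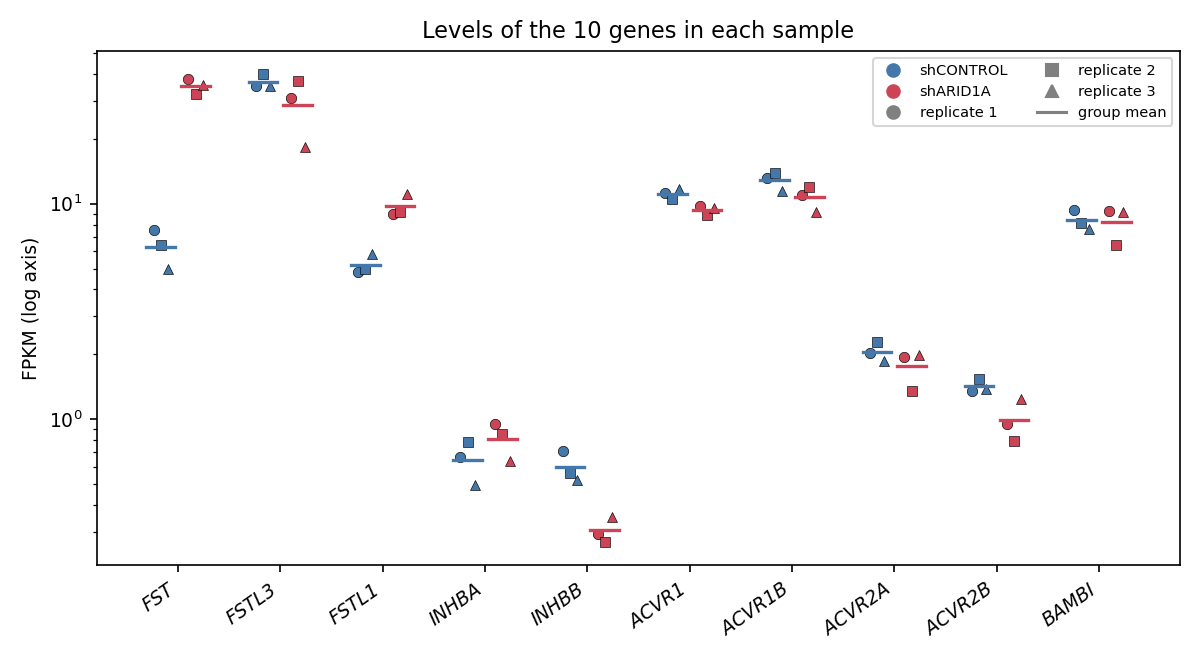
FPKM of the 10 genes (log axis) in each of the 6 samples; blue is shCONTROL, red is shARID1A, the marker shape is the replicate number and the bar is the group mean. The shARID1A samples of FST sit between 32.2 and 37.9 FPKM, above the shCONTROL samples at 4.97 to 7.51, while INHBA and INHBB stay below 1 FPKM in every sample.

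The activin subunit genes were the lowest of the 10 in both groups. INHBA (gene ID 3624), which encodes the subunit of activin A, stood at 0.668, 0.785 and 0.491 FPKM in shCONTROL and 0.946, 0.847 and 0.637 FPKM in shARID1A. The groups overlapped, although each shARID1A sample was above the shCONTROL sample of its own number. The means were 0.648 ± 0.148 and 0.810 ± 0.158 FPKM (SD, n = 3 per group), from 37 to 75 reads per sample.

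INHBB (gene ID 3625), which encodes the subunit of activin B, stood at 0.710, 0.560 and 0.523 FPKM in shCONTROL and 0.291, 0.268 and 0.352 FPKM in shARID1A. Here every shARID1A sample lay below every shCONTROL sample. The ratio of the means, 0.304 ± 0.0429 over 0.598 ± 0.0991 FPKM (SD, n = 3 per group), was 0.508, and 28 to 72 reads lay behind a value. Neither subunit gene reached a mean of 1 FPKM, the minimum for the fit across all genes. In the fit without that minimum the log2 fold changes were 0.14 for INHBA (SE 0.101) and -0.29 for INHBB (SE 0.0619). At levels below 1 FPKM the added 1 FPKM shrinks these values, so their size cannot be compared with that of higher genes. Other pseudocounts were not run for INHBA and INHBB. The INHBA value was 0.065 without shCONTROL replicate 3, 0.081 without shARID1A replicate 1 and 0.206 without shARID1A replicate 3. After quantile normalization the values were 0.27 for INHBA and -0.19 for INHBB.

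Summed over the activin-binding antagonists FST and FSTL3, the level was 40.1 to 46.4 FPKM in shCONTROL and 53.9 to 69.4 FPKM in shARID1A. Summed over INHBA and INHBB it was 1.01 to 1.38 and 0.989 to 1.24 FPKM. The antagonist sum was 31.0, 34.5 and 39.5 times the subunit sum in shCONTROL and 55.6, 62.2 and 54.5 times in shARID1A, and these ratios did not overlap. The subunit sum leaves out INHBE, another activin subunit gene, named here after its values were seen. It stood at 0.700, 1.47 and 1.78 FPKM in shCONTROL and 0.158, 0.277 and 0.841 FPKM in shARID1A, and its groups overlapped. Adding INHBE would lower every ratio. The antagonist sum holds FST, whose fold change was already known, so nothing is read from the ratios. The ratios compare transcripts per length and not protein.

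The type I receptor genes were expressed at similar levels. ACVR1 (gene ID 90), which encodes ALK2, a receptor that mainly drives BMP-type SMADs, stood at 11.2, 10.5 and 11.6 FPKM in shCONTROL and 9.73, 8.89 and 9.51 FPKM in shARID1A. Its groups did not overlap, although the means, 11.1 ± 0.590 and 9.38 ± 0.435 FPKM (SD, n = 3 per group), gave a log2 fold change of only -0.22 (SE 0.0969). ACVR1B (gene ID 91), which encodes ALK4, the main activin type I receptor, stood at 13.2, 13.8 and 11.5 FPKM in shCONTROL and 11.01, 11.95 and 9.11 FPKM in shARID1A. The groups overlapped at shCONTROL replicate 3 and shARID1A replicate 2, and replicate 3 was the lowest of each group. Between samples of the same number, shARID1A was lower each time. The log2 fold change was -0.25 (SE 0.125), and -0.15 without shARID1A replicate 3. After quantile normalization it was -0.12 for ACVR1 and -0.16 for ACVR1B.

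The type II receptor genes, whose products bind the ligand first, were lower in level. ACVR2A (gene ID 92) stood at 2.03, 2.29 and 1.85 FPKM in shCONTROL and 1.93, 1.35 and 1.98 FPKM in shARID1A. Between samples of the same number, shARID1A was lower in replicates 1 and 2 and higher in replicate 3. The ACVR2A groups overlapped, with shARID1A replicate 2 the lowest sample, and the log2 fold change was -0.16 (SE 0.136). It was -0.045 without that library, -0.10 without shCONTROL replicate 2 and 0.00 after quantile normalization. ACVR2B (gene ID 93) stood at 1.35, 1.53 and 1.38 FPKM in shCONTROL and 0.946, 0.794 and 1.23 FPKM in shARID1A. Its groups did not overlap, and the means, 1.42 ± 0.0957 and 0.991 ± 0.223 FPKM (SD, n = 3 per group), gave a log2 fold change of -0.29 (SE 0.127). It was -0.37 without shARID1A replicate 3, -0.21 without shARID1A replicate 2 and -0.13 after quantile normalization, and ran from -0.49 to -0.10 over pseudocounts of 0.1 and 5 FPKM. The antisense gene ACVR2B-AS1 was also lower, at 0.477, 0.437 and 0.103 FPKM in shCONTROL and 0.0872, 0.0732 and 0.0574 FPKM in shARID1A. No source used here gives the strandedness, so reads of ACVR2B and its antisense partner cannot be told apart where they overlap. INHBA-AS1 had at most 8 reads in a sample.

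The 4 receptor genes together summed to 26.4 to 28.1 FPKM in shCONTROL and 21.8 to 23.6 FPKM in shARID1A, ranges that did not overlap. ACVR1 and ACVR1B made up most of each sum, and the sum was not redone with other scalings. Among single genes with a read, 20.6% did not overlap with shARID1A lower, so nothing is read from the sum. BAMBI (gene ID 25805), a receptor-like protein without a kinase domain that dampens TGF-beta signalling, stood at 9.38, 8.09 and 7.67 FPKM in shCONTROL and 9.23, 6.41 and 9.14 FPKM in shARID1A. Between samples of the same number, shARID1A was lower in replicates 1 and 2 and higher in replicate 3. The BAMBI groups overlapped widely, with means of 8.38 ± 0.892 and 8.26 ± 1.602 FPKM (SD, n = 3 per group) and a log2 fold change of -0.03 (SE 0.150). The sign of this value turned in 5 of 16 other settings.

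The order of the levels differed between the groups. In shCONTROL it ran from FSTL3 through ACVR1B, ACVR1, BAMBI, FST, FSTL1, ACVR2A, ACVR2B and INHBA to INHBB. Neighbours whose samples overlapped there were ACVR1B and ACVR1, FST and FSTL1, and INHBA and INHBB. In shARID1A, FST came first, overlapping FSTL3, and FSTL1 stood in a run of overlapping neighbours with ACVR1B, ACVR1 and BAMBI, followed by ACVR2A, ACVR2B, INHBA and INHBB. In that group ACVR2B and INHBA overlapped as well, while INHBA and INHBB did not.

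Of all 10 genes, FST and FSTL1 had groups that did not overlap with shARID1A higher, where 9.85% of the 18973 genes with a read did so. INHBB, ACVR1 and ACVR2B did not overlap with shARID1A lower, where 20.6% of genes did so. In the limma fit across the 11599 genes whose mean reached 1 FPKM, 8 of the 10 genes were tested. FST and FSTL1 were called higher at an adjusted p below 0.05, against 5.85% of all genes tested, and 0 of the 8 were called lower, against 10.9% of all genes tested. Without the minimum level all 10 entered, and INHBB was called lower, against 5.17% of genes in that fit. This call for INHBB ended when any 1 of the 6 libraries was left out. Since the contrast was known when the genes were chosen, nothing is read from these counts. The median log2 fold change of the 8 tested genes was -0.19, and that of all genes tested was -0.08.

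**Figure D2:**
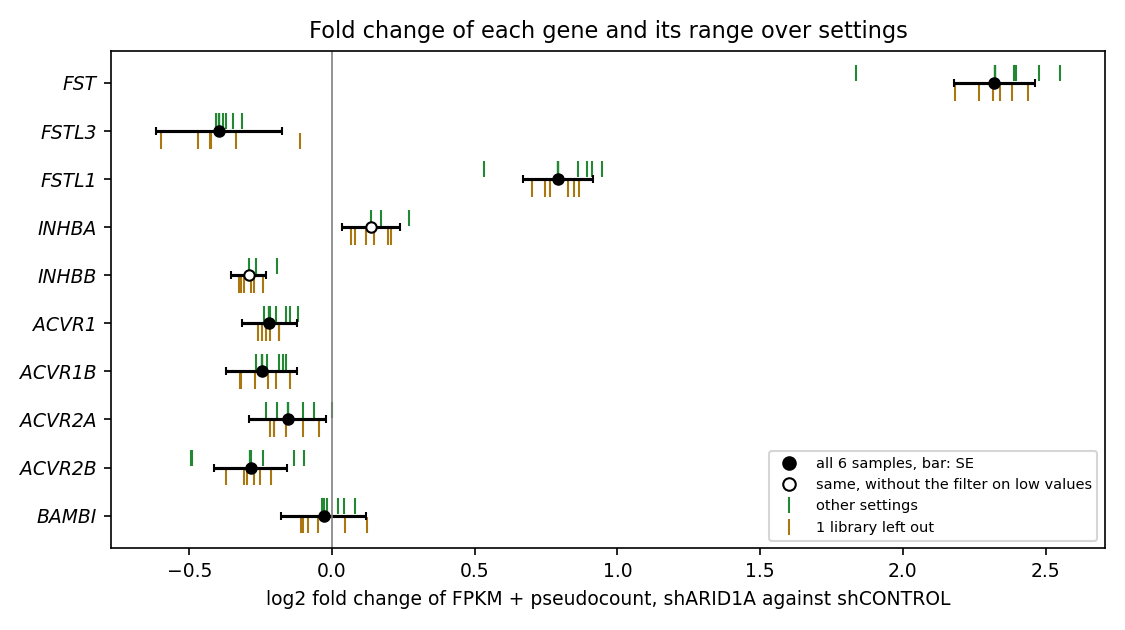
Log2 fold change of each of the 10 genes, shARID1A against shCONTROL, with its standard error (black; open circles for INHBA and INHBB, from the fit without the filter on low values), the values in other settings (green ticks) and with 1 library left out (brown ticks). FST ranges from 1.83 to 2.55 and FSTL1 from 0.53 to 0.95, while the ticks of BAMBI lie on either side of 0.

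By the distance between centred log2(FPKM + 1) profiles over the 6 samples, the protein-coding genes nearest to FST, of 10769 compared, were CXCL1, PTX3 and FABP4. CXCL1, a neutrophil-attracting chemokine with close paralogs that may share its reads, differed from FST by a root mean square of 0.22 log2 units, PTX3, a secreted pentraxin, by 0.354 and FABP4, a fatty acid carrier, by 0.372. The group means of CXCL1 were 2.58 ± 0.689 and 13.4 ± 1.61 FPKM (SD, n = 3 per group). FABP4 was at 51.8 ± 2.86 and 164 ± 22.4 FPKM. Nearest to FSTL1 were GINS1, a subunit of the replicative helicase, at a difference of 0.0491, CRIM1, a transmembrane protein that binds BMPs, at 0.0597, and SPAG5, a spindle protein, at 0.06. The distances of FST are larger than those of FSTL1. The profiles were centred but not scaled, so a distance depends on the size of the fold change as well as on shape. FST had the larger fold change, so nothing is read from this difference in distance.

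**Figure D3:**
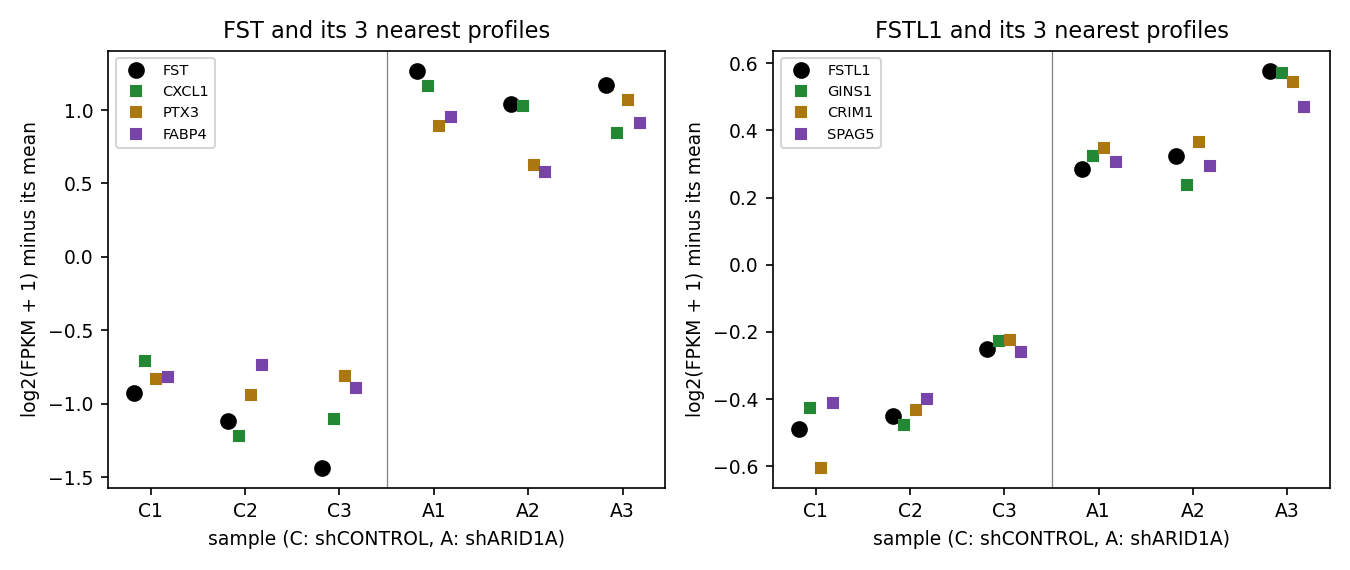
Log2(FPKM + 1) minus its mean over the 6 samples (C1 to C3, shCONTROL; A1 to A3, shARID1A) for FST (left) and FSTL1 (right), in black, and the 3 protein-coding genes nearest to each, in colour. The points of GINS1, CRIM1 and SPAG5 lie close to FSTL1 in every sample, and those of PTX3 and FABP4 span a smaller range than FST.

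Around the 10 genes, 154 other genes of the pathway were listed by role, of which 136 were in the table and 93 had a mean of at least 1 FPKM. With the ARID1A shRNA, 14 of the 93 rose and 13 fell (limma, adjusted p below 0.05), which is 29.0% against 16.8% of all genes tested. Their median log2 fold change was -0.10, and that of all genes tested was -0.08. The activin and TGF-beta responsive list alone gave 8 of the rises and 6 of the falls, which is 58.3% of its tested genes. By direction, 5.85% of all genes tested rose and 10.9% fell, which is the background for the counts of each list below. The lists were drawn up with earlier results of these data known, so these shares are a description and no enrichment is read from them. With the replicate number as a block, 17 rose and 17 fell. Leaving out shCONTROL replicate 1 or 2 left 8 that rose in each case, and leaving out shARID1A replicate 1 left 9. Without shCONTROL replicate 2 or shARID1A replicate 1, 7 fell in each case, and without shARID1A replicate 3, 20 fell.

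Among 9 other ligands tested, BMP4 rose and GDF15 fell (median log2 fold change 0.25). BMP4, a ligand that follistatin binds more weakly than activin, stood at 5.12, 4.61 and 6.01 FPKM in shCONTROL and 8.60, 9.90 and 9.30 FPKM in shARID1A (log2 fold change 0.72, SE 0.119, limma adjusted p = 0.00648). GDF15, a stress-induced divergent member of the superfamily, went from 28.3 ± 2.23 to 13.3 ± 1.01 FPKM (SD, n = 3 per group; log2 fold change -1.04, limma adjusted p = 0.00104). TGFB1 was the most abundant ligand gene, at 88.0 ± 2.69 and 72.5 ± 11.2 FPKM, and missed the threshold (limma adjusted p = 0.133). With the replicate block, 3 ligand genes rose and 2 fell, and without shARID1A replicate 3, 2 rose.

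Of 4 other antagonist and follistatin-domain genes tested, 2 rose and 0 fell (median 0.45). NOG, which encodes the BMP antagonist noggin, stood at 0.634, 1.01 and 1.40 FPKM in shCONTROL and 2.33, 3.15 and 3.14 FPKM in shARID1A (log2 fold change 0.95, SE 0.169, limma adjusted p = 0.00860). SPOCK1, a proteoglycan with a follistatin-like domain, stood at 20.8 ± 4.27 and 33.9 ± 4.94 FPKM (SD, n = 3 per group; limma adjusted p = 0.0220), a call that ended when shCONTROL replicate 1, shCONTROL replicate 2 or shARID1A replicate 1 was left out (up to 0.0988) and without the filter on low values. AGRN, which encodes the basement membrane proteoglycan agrin with its follistatin-like repeats, was the most abundant, at 79.0 ± 8.70 and 85.1 ± 18.4 FPKM (limma adjusted p = 0.735).

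Of 10 other receptor and coreceptor genes tested, TGFBR2 rose and 0 fell (median -0.05). TGFBR2, the type II receptor of TGF-beta itself and the most abundant receptor gene of the list, stood at 29.0, 29.1 and 37.1 FPKM in shCONTROL and 43.2, 43.7 and 45.8 FPKM in shARID1A (log2 fold change 0.48, SE 0.113, limma adjusted p = 0.0250). This call ended when shCONTROL replicate 1, shCONTROL replicate 2 or shARID1A replicate 1 was left out (up to 0.123). Without shARID1A replicate 3, 2 receptor genes rose and 2 fell.

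Of 22 SMAD genes and direct SMAD regulators tested, 3 fell and 0 rose (median -0.23). The 3 are 13.6% of the list, near the 10.9% of all genes tested that fell, so no direction is read from them. SMAD7, the inhibitory SMAD, stood at 13.6, 13.2 and 14.6 FPKM in shCONTROL and 8.87, 8.30 and 7.28 FPKM in shARID1A (log2 fold change -0.70, SE 0.107, limma adjusted p = 0.00482). TGIF1, a corepressor of SMAD2 and SMAD3, stood at 25.2 ± 2.06 and 15.8 ± 0.0775 FPKM (SD, n = 3 per group; limma adjusted p = 0.00420), and SMAD1, a BMP-activated SMAD, at 6.40 ± 0.623 and 4.07 ± 0.462 FPKM (limma adjusted p = 0.0195). The SMAD1 call ended when shCONTROL replicate 1, shCONTROL replicate 2 or shARID1A replicate 1 was left out (up to 0.107), and 8 genes of this list fell without shARID1A replicate 3. PMEPA1, a SMAD-sequestering membrane protein, was the most abundant at 346 ± 19.1 and 345 ± 32.1 FPKM (limma adjusted p = 0.952).

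Of 24 activin and TGF-beta responsive genes tested, 8 rose and 6 fell (median 0.07), so the calls went in both directions. THBS1, a matrix protein that activates latent TGF-beta, stood at 161, 163 and 204 FPKM in shCONTROL and 414, 439 and 396 FPKM in shARID1A (log2 fold change 1.25, SE 0.110, limma adjusted p = 0.000652). It had the highest mean of the list over all 6 samples, although in shCONTROL alone TGFBI, named after its values were seen, at 238 ± 55.4 FPKM, and JUNB, at 219 ± 18.8 FPKM (SD, n = 3), lay above it. FN1, which encodes fibronectin, had the next smallest p among the rises (log2 fold change 1.04). CDKN2B, which encodes the CDK inhibitor p15, stood at 64.5, 65.1 and 41.6 FPKM in shCONTROL and 10.6, 13.4 and 17.6 FPKM in shARID1A (log2 fold change -1.96, SE 0.215, limma adjusted p = 0.00148). PTHLH, which encodes a parathyroid hormone-related peptide, stood at 45.4 ± 7.79 and 18.1 ± 0.685 FPKM (SD, n = 3 per group; limma adjusted p = 0.000975). CCN1, LTBP2, HMGA2, TAGLN, MMP2 and TIMP3 were the other genes that rose, and LTBP3, JUNB, ITGB6 and BHLHE40 the others that fell. When shCONTROL replicate 1, shCONTROL replicate 2 or shARID1A replicate 1 was left out, 6 rose and 4 fell in each case, and with upper quartile scaling or no filter on low values 8 rose and 4 fell. Many genes of this list also respond to pathways other than activin.

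Of 14 BMP responsive genes tested, 2 fell and 0 rose (median -0.26). The 2 are 14.3% of the list, near the 10.9% of all genes tested that fell. ID2, which encodes an inhibitor of basic helix-loop-helix factors, stood at 42.0 ± 9.22 and 25.2 ± 4.61 FPKM (SD, n = 3 per group; limma adjusted p = 0.0286), and GATA3, an epidermal transcription factor, at 67.2 ± 6.41 and 47.4 ± 1.27 FPKM (limma adjusted p = 0.0124). The ID2 call ended when shCONTROL replicate 2 or 3 was left out, or shARID1A replicate 1 or 2 (up to 0.105) and without the filter on low values, and the GATA3 call when shCONTROL replicate 1, shCONTROL replicate 2 or shARID1A replicate 1 was left out (up to 0.0795). ID1, the most abundant, stood at 929 ± 48.4 and 873 ± 106 FPKM (limma adjusted p = 0.552). With the replicate block, 4 genes of the list fell, and without shARID1A replicate 3, 1 rose.

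Of 10 precursor processing and latency genes tested, 2 rose and 1 fell (median -0.02). FBN2, a microfibril protein that holds latent growth factors, stood at 7.54 ± 2.35 and 14.4 ± 2.90 FPKM (SD, n = 3 per group; limma adjusted p = 0.0241). The secreted proteases HTRA1 and HTRA3 moved apart, HTRA1 from 8.83 ± 0.0927 to 13.4 ± 1.97 FPKM (limma adjusted p = 0.0182) and HTRA3 from 18.4 ± 3.38 to 11.3 ± 0.830 FPKM (limma adjusted p = 0.0172). Each of these 3 calls ended without shCONTROL replicate 2, with adjusted p up to 0.0996, 0.0844 and 0.0640 over the libraries left out. The FBN2 call also ended without shCONTROL replicate 1 and without the filter on low values, the HTRA1 call when shCONTROL replicate 1 or 3 was left out, or shARID1A replicate 1, and the HTRA3 call without shARID1A replicate 1. FURIN, the convertase that cleaves activin precursors, was the most abundant at 41.2 ± 4.49 and 51.6 ± 4.73 FPKM and missed the threshold (limma adjusted p = 0.0808).

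**Figure D4:**
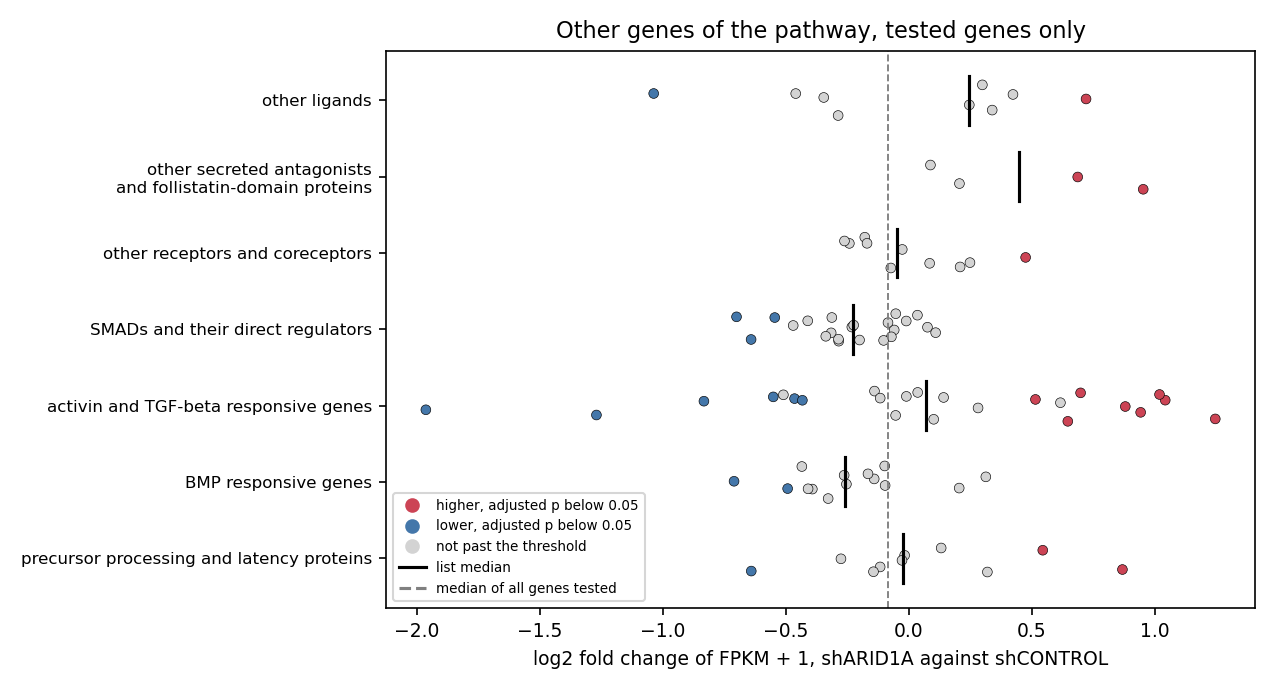
Log2 fold change of FPKM + 1, shARID1A against shCONTROL, for the 93 tested genes of the 7 pathway lists; red points rose and blue points fell at an adjusted p below 0.05, grey points missed it, black lines are list medians and the dashed line is the median of all genes tested (-0.08). The activin and TGF-beta responsive genes spread from -1.96 to 1.25. The called SMAD genes and regulators, 3 of 22 tested, lie below 0, and 10.9% of all genes tested fell.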

How the data were processed

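RNA was sequenced in 6 samples of A431 cells, 3 per group, grouped by their titles. The authors deposited FPKM values and gene lengths; HISAT2 2.0.5 and featureCounts 1.5.0-p1 are named per the submitters' processing notes, and the genome build is not given in the sources used here. Of 19814 rows naming a gene, 393 had another denominator and were left out. Over the other 19421, values were whole multiples of 1 read (tolerance 0.01 reads).

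The test was limma 3.58.1 (R 4.3.3, mean-variance trend, two-sided) on log2(FPKM + 1), for the 11599 genes whose mean reached 1 FPKM, without covariates; p-values were adjusted by Benjamini-Hochberg across them; this scale understates changes of low genes. It was also run on simulated data with independent samples and equal numbers of genes changed up and down. The real libraries differ from these settings, so nothing about the calls is read from that run. Same-numbered replicates deviated together from their group means (correlations across genes 0.321, 0.187 and 0.315, a check from the data), so a replicate block was among the alternatives, with other pseudocounts, filters, scalings, voom on recovered reads and each library left out. The combined settings for INHBA and INHBB were added after seeing the data.

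The members and lists were chosen with earlier results of these data known. All 10 members are named. Of each list, the called genes are named (with over 4, the 2 with the smallest p in each direction) with the most abundant tested gene by its mean over all 6 samples; the further called genes of the responsive list are named without values. Promoters are from RefSeq, GRCh38.p14, matched by symbol for 10 of 10 members. Python 3.11.15 with pandas 2.3.3 made the tables.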

Additional observations from a re-analysis of the deposited data

How the results depend on the processing

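FST and FSTL1 were called higher in all 16 alternatives, in which 231 to 1116 of all genes tested were called higher. The alternatives refit the same 6 samples, and the genes were chosen with the fold change of FST known. They describe the dependence on processing only and are no test of these genes. In 15 of the 16 alternatives 0 of the members tested were called lower. INHBA and INHBB were not tested in those 15, so they could not be called. Without the filter on low values all 10 were tested and 1 was called lower (INHBB). The replicate block changed no call among the 8 members tested with it, which do not include INHBA and INHBB. It gave 2740 calls over all genes, 942 higher and 1798 lower, against 1944. Leaving out 1 library moved that total to between 587 and 3403 (231 to 1116 higher, 356 to 2287 lower), the pathway genes that rose to between 8 and 18, and those that fell to between 7 and 20. Lower calls over all genes numbered 820 with a minimum of 5 FPKM, where fewer genes were tested, and 829 after quantile normalization, for which the cause was not tested. Calls that were higher made up 34.9% of all calls, 50.6% after upper quartile scaling and 53.2% after quantile normalization, and with these scalings the median of all genes tested was -0.01 and 0.00. Among genes that missed the threshold, PMEPA1 turned to 0.071 with upper quartile scaling and 0.034 with voom. With 1 library left out it ranged from -0.059 to 0.069, and AGRN from -0.047 to 0.267. Depth limits INHBA and INHBB, with 28 to 75 reads a sample.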
